A study of Rattus norvegicus with 6 samples.

Results

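The miR-99, miR-100 and miR-125 microRNAs (miRNAs) were followed in rat primary skeletal muscle cells, taken as every mature arm of miR-99a, miR-99b, miR-100, miR-125a and miR-125b on the array. This rule found 11 arms, 5 of them 5p and 6 of them 3p, among 719 rat miRNAs. One group of cultures received recombinant IL-8 (interleukin-8), which draws neutrophils to inflamed tissue, at 1 ng/ml (n = 3 samples), and the control group received no agent (n = 3 samples). Both groups came from limb muscle of neonatal rats, were bought as frozen early-passage cells, and were sampled on day 11 in differentiation medium with 2% horse serum. The growth protocol in the labels mentions IL-8 for all 6 samples, whereas the titles, the agent labels and the design text leave 3 untreated, and the titles were followed. Rats have no direct IL-8 orthologue, and the labels do not give the species of the recombinant protein. Whether the 3 samples of a group are separate cultures is not given in the labels, and the spread behind each p-value may thus be technical.

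A miRNA precursor is a hairpin whose 5p and 3p strands are both released, and one of them, the guide, is usually kept in Argonaute while the passenger is degraded. In this group the 5p strand is the usual guide. The guide pairs with messenger RNAs mainly through its seed, bases 2 to 8. miR-99a, miR-99b and miR-100 are known for repressing mTOR and the IGF-1 receptor in human cells. miR-125a and miR-125b are the vertebrate relatives of lin-4, the worm miRNA that times larval development. In mouse myoblasts miR-125b declines during differentiation and targets Igf2. The genes lie in 3 groups, each of which also holds a let-7 gene.

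The mature 5p sequences show how the members fall into 2 seed groups. They are from RefSeq (build GRCr8, plus strand), are written 5′ to 3′, and have the seed in capitals.
miR-99b-5p: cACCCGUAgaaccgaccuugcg
miR-100-5p: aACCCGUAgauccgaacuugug
miR-125a-5p: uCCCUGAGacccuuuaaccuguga
miR-125b-5p: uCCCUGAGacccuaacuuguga
miR-99b-5p (chr1:67350070-67350091) and miR-100-5p (chr8:50798307-50798328) shared a seed and 18 of 22 positions. miR-125a-5p (chr1:67350689-67350712) and miR-125b-5p (chr11:29732588-29732609) shared a seed and their first 13 bases. The sequence table held 10 of the 11 members, and miR-99a-5p was not among them. Its probe shows how close it is to miR-100-5p. The 19-base probes of these 2 miRNAs, read from the array files and written 5′ to 3′, differ at 1 base, T7A from miR-100-5p to miR-99a-5p when counted from the probe's 5′ end, which is in capitals. They are shown because no other 2 guide arms had equally long probes this similar.
miR-100-5p probe: cacaagTtcggatctacgg
miR-99a-5p probe: cacaagAtcggatctacgg
Signal shared between 2 miRNAs this similar was not tested, and their values are uncertain as separate measurements.

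The 3p strands have other seeds, shown here because the arms are compared further on.
miR-99a-3p: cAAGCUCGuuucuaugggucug
miR-99b-3p: cAAGCUCGugucuguggguccg
miR-125a-3p: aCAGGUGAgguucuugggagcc
miR-125b-1-3p: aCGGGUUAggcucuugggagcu
miR-125b-2-3p: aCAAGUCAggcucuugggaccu
Only miR-99a-3p (chr11:29687441-29687462) and miR-99b-3p (chr1:67350108-67350129) of these share a seed. miR-125b-5p can come from a gene on chromosome 8 or one on chromosome 11, and only the 3p arms, miR-125b-1-3p (chr8:50850090-50850111) and miR-125b-2-3p (chr11:29732627-29732648), tell these apart. miR-125a-3p lies at chr1:67350727-67350748. On the array their 15-base probes differ by 1 base, C3G from miR-125b-1-3p to miR-125b-2-3p counted from the 5′ end.
miR-125b-1-3p probe: agCtcccaagagcct
miR-125b-2-3p probe: agGtcccaagagcct
In GRCr8 the genes Mir99b, Mirlet7e and Mir125a lay within 696 bases on chromosome 1. Mir100, Mirlet7a-2 and Mir125b1 spanned 51828 bases on chromosome 8, and Mir99a, Mirlet7c1 and Mir125b2 spanned 45257 bases on chromosome 11. Host transcripts of these miRNA genes were not analysed here. The array files give probe positions on rn4, and no positions were converted between builds.

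Each array gave a fluorescence intensity for 1730 probes to rat miRNAs, without normalization between arrays. Between 301 and 326 of these probes were well above background on the IL-8 arrays, and between 269 and 294 on the control arrays. The scale was set by 264 probes that all 6 arrays called well above background, whose 75th percentile was 540 to 569 on IL-8 arrays and 440 to 497 on control arrays, and every array was divided by its own percentile. A level is log2 of the signal over this percentile, and a change is thus measured against the rest of the array. They cannot be compared between miRNAs, because probes differ in brightness. Each group had a slide and a scan time of its own, and the effect of the slide cannot be told apart from that of IL-8. Of 14 arms of the striated muscle miRNAs miR-1, miR-133, miR-206, miR-208 and miR-499, 0 were well above background on any array, and their summed scaled signal was 0.0761 to 0.119 with IL-8 and 0.0528 to 0.0829 in control. The defining markers of the labelled cell type were therefore not detected. Of 10 fibroblast and smooth muscle arms, 8 were well above background on all arrays, with summed scaled signals of 101 to 109 with IL-8 and 98.7 to 117 in control. The counts on any array were 0 of 10 for blood, 0 of 2 for endothelium, 0 of 9 for epithelium and 0 of 4 for neural arms.

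None of the arms of these miRNAs passed the test of IL-8 against control. Of the 11 arms, 8 were tested, since every array of at least 1 group called a probe of theirs well above background, and 0 of the 8 passed limma at an adjusted p under 0.05 over 167 miRNAs. One of them, miR-125b-2-3p, had only a bound in control, which leaves 7 measured in both groups. At an unadjusted p under 0.05 the members again numbered 0, against 42 of 167 (25.1%). Among all 167 miRNAs 12 passed (7.19%), 6 higher with IL-8 (3.59%) and 6 lower (3.59%). That split was 4 higher and 10 lower with median scaling and 52 higher and 0 lower without scaling, while 24 passed with normexp background correction, 1 of them higher. Leaving out IL-8 replicate 1, 2 or 3 gave 5, 1 or 4 calls, and leaving out control replicate 1, 2 or 3 gave 9, 3 or 33. The guide (5p) arms had changes between -0.10 and 0.038 on the log2 scale, with a median of -0.047, against a median of 0.019 over all miRNAs tested. In bulk RNA, fewer cells of a type and less RNA per cell cannot be told apart.

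**Figure D1:**
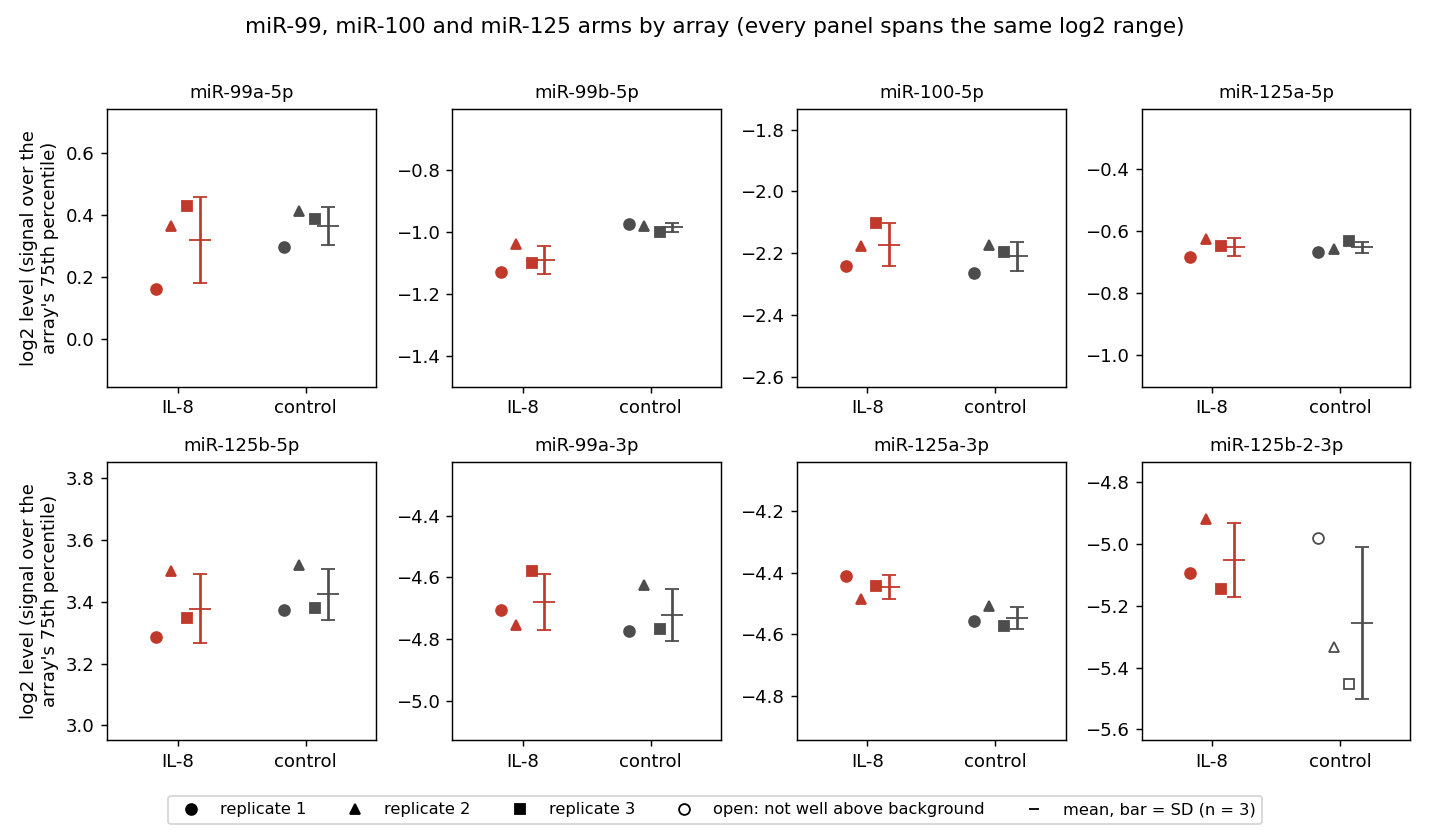
Log2 level (signal over the array's 75th percentile, vertical axis) of the 8 tested arms in IL-8 samples (red, left) and control samples (grey, right). Each replicate's symbol is shown with the mean ± SD (n = 3). Symbols are open where no probe of the arm was well above background. The groups are apart for miR-99b-5p, lower with IL-8, and for miR-125a-3p, higher with IL-8, and overlap for the other 6.

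rno-miR-99b-5p had the smallest p among the guide arms. Its log2 level was -1.13, -1.04 and -1.10 in the IL-8 samples and -0.97, -0.98 and -1.0006 in the control samples. All IL-8 values lay below all control values, with means of -1.09 ± 0.045 in IL-8 and -0.99 ± 0.014 in control (SD, n = 3 each). The fold was 0.930 (95% CI 0.854 to 1.01), which did not pass (limma adjusted p = 0.296). Both of its probes were lower with IL-8, by -0.069 for the 15-base and -0.14 for the 16-base probe on the log2 scale, but the shorter lies within the longer and they are no independent measurements. Groups that do not overlap were found for 50 of the 167 miRNAs (29.9%) and for 2 of the 8 tested arms. Without scaling the log2 change of miR-99b-5p was 0.13 (limma adjusted p = 0.242).

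rno-miR-99a-5p had log2 levels of 0.16, 0.36 and 0.43 with IL-8 and 0.30, 0.41 and 0.39 in control. The ranges overlapped, and IL-8 replicate 1 was the lowest of all 6 samples. Its fold was 0.968 (95% CI 0.850 to 1.103, limma adjusted p = 0.793), and without IL-8 replicate 1 the log2 change was 0.032 in place of -0.047.

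rno-miR-100-5p, its near-identical relative from chromosome 8, stood at -2.24, -2.18 and -2.10 with IL-8 and at -2.26, -2.17 and -2.20 in control. These groups also overlapped, with a fold of 1.03 (95% CI 0.931 to 1.13, limma adjusted p = 0.787). In both miR-99a-5p and miR-100-5p replicate 1 was the lowest sample of its group, with IL-8 as in control.

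rno-miR-125b-5p, a lin-4 relative, was far above background on every array. Its 17-base probe gave 12414.2, 13912.5 and 13002.9 with IL-8 and 10901.9, 12494.3 and 12484.6 in control, in units of intensity. After scaling its log2 levels were 3.29, 3.50 and 3.35 with IL-8 and 3.37, 3.52 and 3.38 in control. Replicate 2 was the highest sample in each group, and the groups overlapped. The fold was 0.968 (95% CI 0.856 to 1.09), with a limma adjusted p of 0.787. Its probes differed in sign, with log2 differences of 4.8e-03 for the 16-base and -0.099 for the 17-base probe.

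rno-miR-125a-5p had log2 levels of -0.68, -0.62 and -0.65 with IL-8 and -0.67, -0.66 and -0.63 in control. The IL-8 range enclosed the whole control range. Its fold was 1.00 (95% CI 0.922 to 1.09, limma adjusted p = 0.997), and its SE of 0.051 was the smallest of the 5 guide arms. The probes again differed in sign, at 0.036 and -0.035 on the log2 scale.

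Over the 5 guide arms the 95% intervals of the fold reached from 0.850 to 1.13. A change beyond these bounds is outside the interval of every guide arm. Spots of a probe on the same array varied by a coefficient of variation between 5.56% and 9.42% (medians over arrays, 10 probes with 10 spots each). All 10 guide arm probes were well above background on all 6 arrays.

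**Figure D2:**
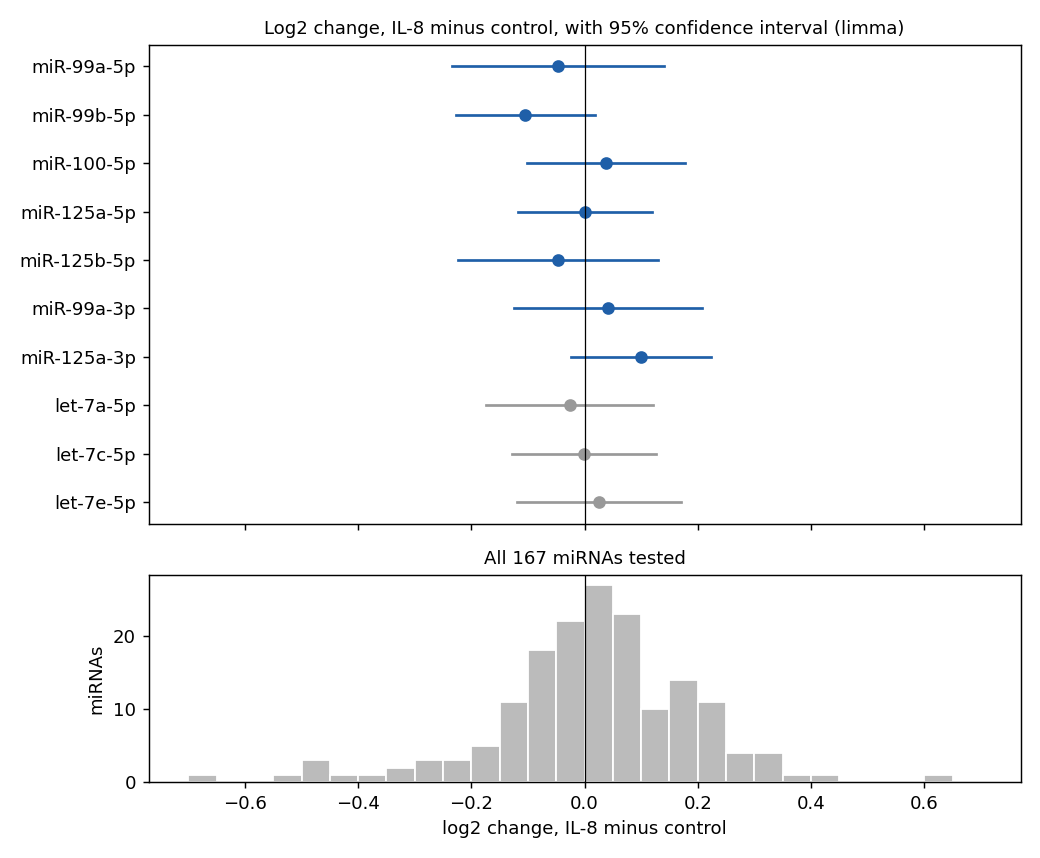
Log2 change, IL-8 minus control (horizontal axis), with the 95% confidence interval from limma for 7 tested arms (blue) and 3 neighbouring let-7 guide arms (grey), above a histogram of the change of all 167 miRNAs tested. Every interval includes 0, and miR-125b-2-3p, which was not well above background on the control arrays, is left out.

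The passenger arms were at or near background. Among their 22 probes, all 6 arrays called 2 well above background and no array called 16 so, and 3 of the 6 arms could not be tested. miR-100-3p had signals of -0.379, -2.98 and -1.07 with IL-8 and -1.58, -3.48 and -3.56 in control on its longest probe. miR-125b-1-3p gave -2.85, -5.29 and -6.53 with IL-8 and -5.003, -6.35 and -6.50 in control on its 15-base probe. Neither arm was therefore well above background on any array. The third untested arm, miR-99b-3p, was so on 1 IL-8 array.

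**Figure D3:**
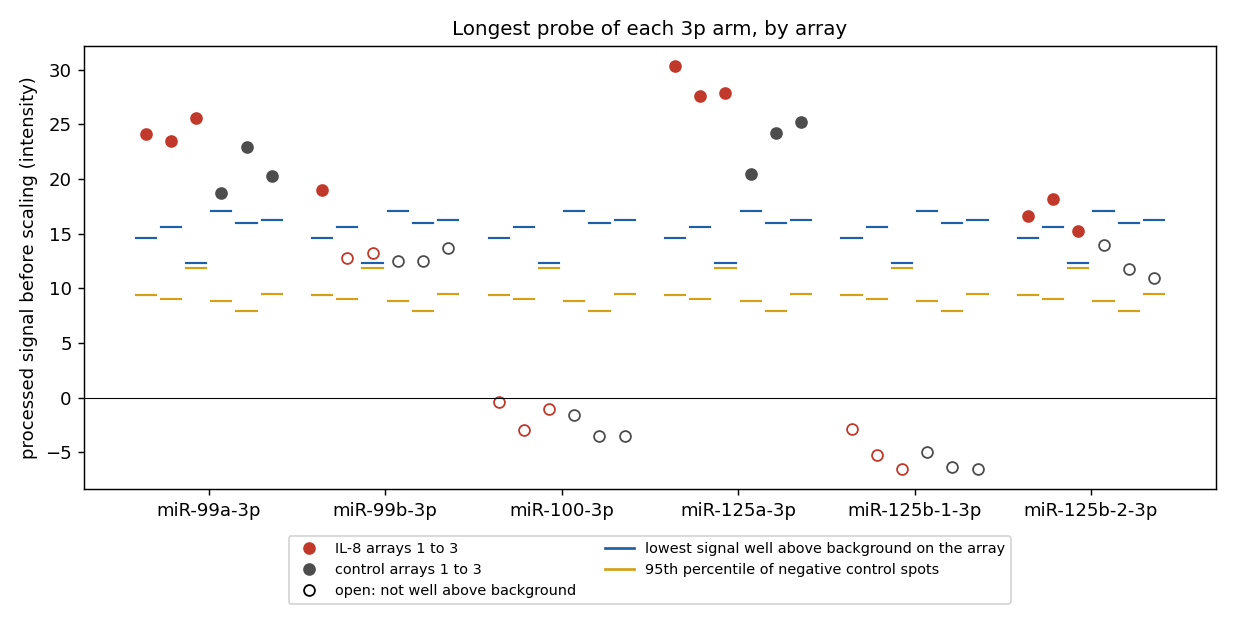
Processed signal before scaling (intensity, vertical axis) of the longest probe of each 3p arm on the 3 IL-8 arrays (red) and 3 control arrays (grey), filled where well above background, with each array's lowest signal well above background (blue line) and the 95th percentile of its negative control spots (yellow line). miR-99a-3p and miR-125a-3p are filled on all 6 arrays, miR-125b-2-3p on the 3 IL-8 arrays, miR-99b-3p on 1 IL-8 array, and miR-100-3p and miR-125b-1-3p on none.

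rno-miR-125b-2-3p, the passenger of the chromosome 11 gene, was well above background on 3 IL-8 arrays and on 0 control arrays, on 1 of its 4 probes. That probe gave 16.6, 18.2 and 15.2 with IL-8 and 13.9, 11.8 and 10.9 in control before scaling. The lowest signals called well above background were 14.6, 15.6 and 12.3 on the IL-8 arrays and 17.1, 16.0 and 16.3 on the control arrays. After scaling the log2 levels were -5.09, -4.92 and -5.15 with IL-8 and -4.98, -5.33 and -5.45 in control, where control replicate 1 fell inside the IL-8 range and control replicate 3 was at the floor of the scale. The means were -5.05 ± 0.12 with IL-8 and -5.26 ± 0.24 in control (SD, n = 3 each). The arm entered the fit only through the IL-8 arrays, and its control level is only a bound. Since the IL-8 mean of -5.05 lay below the control bound of -4.84, no fold, direction or test is given.

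rno-miR-125a-3p had log2 levels of -4.41, -4.49 and -4.44 with IL-8 and -4.56, -4.51 and -4.57 in control. Every IL-8 value was higher than every control value, by a fold of 1.07 in the means (95% CI 0.983 to 1.17), and the arm did not pass limma (adjusted p = 0.298). Its log2 change of 0.10 became 0.33 without scaling, where it passed (limma adjusted p = 0.0310), and -0.10 with normexp correction. The normexp setting adds an offset of 50, above this arm's processed signals of at most 30.3, so its value shows no direction. Of its 4 probes 2 were used, and 1 of these was well above background on 2 of 3 control arrays. Their spots varied more than those of the guide arms, with median coefficients of variation between 11.4% and 19.4% over the 5 passenger probes in use.

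miR-99a-3p stood at -4.71, -4.76 and -4.58 with IL-8 and at -4.77, -4.62 and -4.77 in control. The groups overlapped, with a fold of 1.03 (95% CI 0.917 to 1.16, limma adjusted p = 0.793). The median signal of negative control spots, a measure of the background that passenger signals sit on, was 4.58, 4.14 and 6.03 on the IL-8 arrays and 3.65, 3.12 and 4.83 on the control arrays. Its part in the passenger values was not tested.

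Both arms entered the fit for 3 precursors, and the difference between them asks whether guide and passenger moved by different amounts. For miR-125b the passenger had only a bound in control, and its guide can also come from the gene on chromosome 8. The size of the difference itself has no meaning, because the arms have different probes, so only its change with IL-8 is read. For miR-125a and miR-99a the mean of guide minus passenger was lower with IL-8, and neither change passed, while for miR-125b no direction can be read. Over all 22 precursors with both arms in the fit, the fitted value is the change of 5p minus 3p. Which arm is the guide was not determined for the precursors of other miRNAs. Of the 22, 12 had a fitted value below 0 (54.5%), which is therefore not a share for guide minus passenger. Of the same 22, 0 passed limma (0%), with 3 at an unadjusted p under 0.05 (13.6%) and 6 whose groups did not overlap (27.3%). miR-125a and miR-99a were among neither.

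For miR-125a the log2 difference was 3.73, 3.86 and 3.79 with IL-8 and 3.89, 3.85 and 3.94 in control. IL-8 replicate 2 overlapped the control range, and the change was -0.099 ± 0.056 (SE, limma adjusted p = 0.301). For miR-99a the log2 difference was 4.87, 5.12 and 5.01 with IL-8 and 5.07, 5.04 and 5.15 in control, with a change of -0.088 ± 0.077 (SE, limma adjusted p = 0.493). With normexp background correction these changes were 0.088 and 0.072.

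For miR-125b-5p over miR-125b-2-3p the log2 difference was 8.38, 8.42 and 8.49 with IL-8 and 8.35, 8.85 and 8.83 in control. Control replicate 1 was the lowest of all 6, and the other control samples lay above every IL-8 sample. The passenger was not well above background on any control array and entered only through the IL-8 arrays. The control differences therefore use passenger signals that were not well above background, that of control replicate 3 at the floor. No change, direction or test is given.

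**Figure D4:**
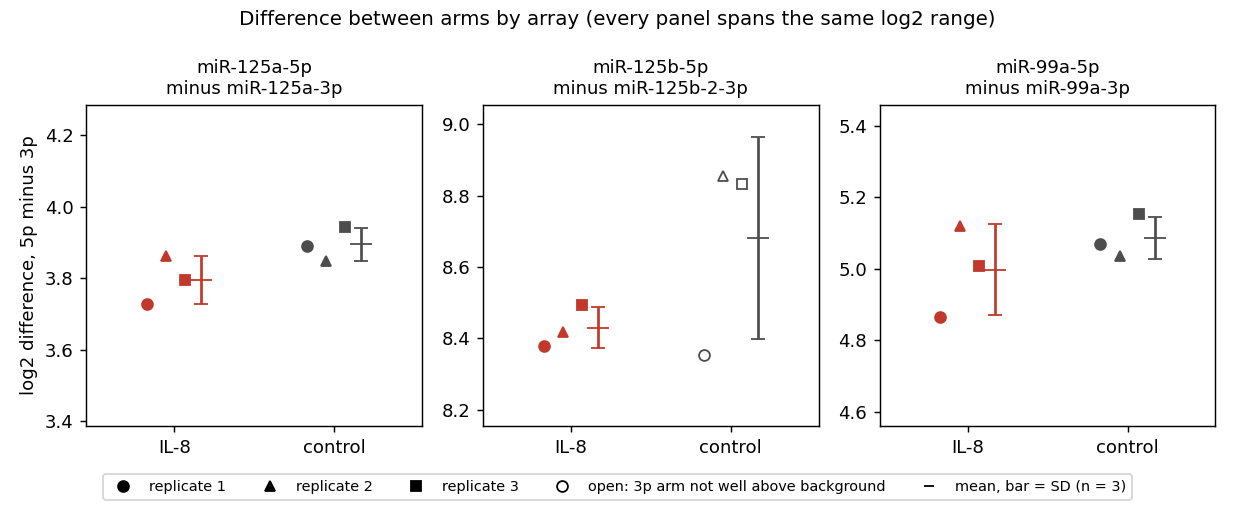
Log2 difference of the 5p arm minus the 3p arm (vertical axis) for the 3 precursors with both arms tested. IL-8 samples are red (left) and control samples grey (right), with replicate symbols and mean ± SD (n = 3). Symbols are open where no probe of the 3p arm was well above background, and no direction is read from these differences. Control replicate 1 of miR-125b lies below the IL-8 samples, while the other control replicates lie above them.

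The let-7 genes share the 3 gene groups, and their guides are known for holding back growth and stem cell genes such as Lin28 and Hmga2. No let-7 neighbour passed limma. let-7e-5p, between miR-99b and miR-125a on chromosome 1, had log2 levels of 0.18, 0.073 and 0.18 with IL-8 and 0.069, 0.093 and 0.20 in control, a change of 0.026 ± 0.062 (SE). let-7c-5p, which a second gene on chromosome 7 also encodes, had a change of -5.0e-04 ± 0.054 (SE). let-7a-5p, with a further gene on chromosome 17, had a change of -0.027 ± 0.063 (SE). The limma adjusted p was 0.850 for let-7a-5p and let-7e-5p and 0.997 for let-7c-5p. Over the 8 guide arms of let-7 and miR-98 on the array, 0 passed limma, 0 had an unadjusted p under 0.05, and the log2 changes ran from -0.088 to 0.044 with a median of -0.014. The 3p arms let-7a-1-3p, let-7c-1-3p and let-7e-3p were not well above background on any array. Of these, let-7a-1-3p carries another gene number than Mirlet7a-2 of the chromosome 8 group, whose own 3p arm was not examined.

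Within the chromosome 1 group the 3 guides stood at log2 changes of -0.10 for miR-99b-5p, 0.026 for let-7e-5p and 5.3e-04 for miR-125a-5p, and all 3 intervals included 0. Across the 6 arrays the levels of the 5 guide arms, centred on their means, correlated between r = -0.27 (miR-100-5p with miR-99b-5p) and r = 0.76 (miR-100-5p with miR-99a-5p). These are descriptions over 6 arrays that share scaling and slide. The mean centred level of the 5 guides was -0.093, 0.033 and 0.013 on the IL-8 arrays and -0.019, 0.052 and 0.015 on the control arrays, so IL-8 replicate 1 was the lowest and control replicate 2 the highest. Among 159 other miRNAs, those with the most similar course over the 6 arrays were miR-24-3p (r = 0.90), miR-127-3p (r = 0.86), miR-221-3p (r = 0.85), miR-22-3p (r = 0.84) and miR-31a-5p (r = 0.82).

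The direction of most of these small changes depended on how arrays were scaled. Without scaling the 7 arms measured in both groups were higher with IL-8, by 0.13 to 0.33 on the log2 scale, as was the median of all miRNAs tested, at 0.25 in place of 0.019. There miR-125a-3p passed limma (adjusted p = 0.0310), among 52 of 167 miRNAs. Relative to that median miR-99b-5p, miR-99a-5p, miR-125b-5p and miR-125a-5p were lower, as they were under the reported scaling. Dividing each array by a constant moves every change above the floor equally, so this match was fixed in advance. With normexp correction the same 7 arms were below 0, with a median over all miRNAs of -0.071. The offset of 50 in that setting exceeds the passenger signals, and no direction of the passengers is read from it. Under 17 of the 18 alternatives 0 members passed; the exception was no scaling.

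**Figure D5:**
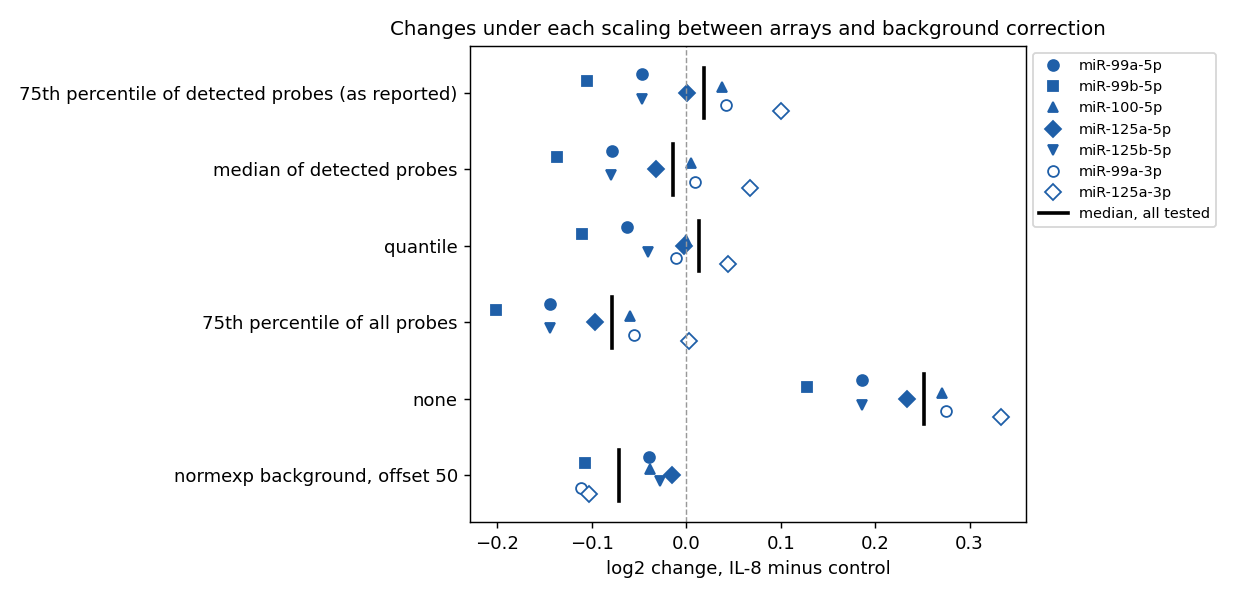
Log2 change, IL-8 minus control (horizontal axis), of 5 guide arms (filled) and 2 passenger arms (open) under each scaling between arrays and with normexp background correction, with the median of all miRNAs tested as a black line. Without scaling every symbol lies right of 0 and so does the median, at 0.25. miR-99b-5p lies left of the median in every row, but only the quantile and normexp rows could differ in this. In the other rows each array is divided by a constant or left unscaled, which keeps the distance from the median.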

How the data were processed

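Total RNA was labelled with Cy3 and hybridised to 1-colour Agilent miRNA arrays, 1 per sample. The deposited values are linear spot intensities. Agilent Feature Extraction 10.10.1.1 made them, with spatial detrending switched on, per the file headers. The deposited value table equalled the total probe signal of the array files for 100% of spots (relative tolerance 0.0001); it is on a linear scale and not normalized or centred, with column medians of 0.307, -0.802 and -1.18 for IL-8 and -0.529, -1.35 and -1.17 for control. No miRNA spot was saturated.

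Spots of a probe were averaged without outlier spots, divided by the array's 75th percentile over 264 probes, floored at -5.45 (log2; the lowest scaled signal well above background, reached by 2 of the 167 miRNAs) and logged. A probe was well above background when the software said so for over 50% of its spots. A miRNA's value is the mean of its probes that were so on all arrays of a group; 552 miRNAs had none. Groups were compared with limma 3.58.1 in R 4.3.3 (lmFit, eBayes, Benjamini-Hochberg, threshold 0.05), over miRNAs and over arm differences, tested on simulated data. All members, the let-7 genes of their groups and the 5 most similar miRNAs by Pearson's r are named. The members and lists were chosen with earlier results of these data known. Depth has no counterpart here; the number of arrays limits precision. Alternatives were other scalings, backgrounds, filters, probe summaries and floors, a replicate block, array weights and leaving out each sample.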

Additional observations from a re-analysis of the deposited data

Results flagged for a closer look

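miR-99b-3p, the passenger of miR-99b, was not tested because neither group had a probe of it called well above background on each of its arrays. It was set aside here because its 15-base probe gave 19.0 on IL-8 replicate 1, above every control array, with all of its spots well above background. The same probe gave 12.8 and 13.3 on the other IL-8 arrays and 12.5, 12.5 and 13.7 on the control arrays. The value thus rests on 1 array, and that array also had the most probes well above background, 326.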

How the results depend on the processing

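The count of miRNAs called, 12, was 0 with the 75th percentile over all probes, 52 without scaling, 24 with normexp, 0 without a filter, 3 with the replicate block and 28 with array weights, and 1 to 33 when 1 sample was left out. The causes were not tested, except that the setting without a filter tested 719 miRNAs. Members called, 0, became 2 without scaling, miR-125a-3p and miR-125b-2-3p, and stayed 0 in all leave-outs. Arm pairs called, 0, ranged from 0 to 1 over the leave-outs, the 1 being miR-125b without control replicate 1. Fitted values and calls of miR-125b-2-3p and its arm difference rest on control arrays where the arm was not well above background, so they are listed for completeness and neither direction nor size is read from them. Of 250 values of single arms, let-7 neighbours and arm differences under the alternatives, 212 kept direction and side of the threshold, 35 turned sign and 3 newly passed; 0 of the 35 passed. With the 75th percentile over all probes, the log2 change was -0.071 for let-7e-5p, -0.060 for miR-100-5p, -0.097 for miR-125a-5p and -0.056 for miR-99a-3p. With median scaling it was -0.0062 for let-7e-5p and -0.032 for miR-125a-5p. Quantile normalization gave 0.0068 for let-7c-5p, -7.0e-05 for miR-100-5p, -0.0026 for miR-125a-5p and -0.010 for miR-99a-3p. No scaling gave 0.21 for let-7a-5p, 0.23 for let-7c-5p, 0.19 for miR-125b-5p, 0.19 for miR-99a-5p and 0.13 for miR-99b-5p. Normexp gave 0.014 for let-7c-5p, -0.039 for miR-100-5p, -0.10 for miR-125a-3p, -0.015 for miR-125a-5p, -0.11 for miR-125b-2-3p and -0.11 for miR-99a-3p, and arm differences of 0.088, 0.083 and 0.072 for miR-125a, miR-125b and miR-99a. The normexp offset of 50 exceeds the passenger signals, so no direction is read from the passenger values and arm differences of that setting. The brightest probe gave -0.035 for miR-125a-5p, and array weights gave -0.010 for miR-99a-3p. Over the leave-outs, values ran from -0.098 to 0.032 for miR-99a-5p, -0.11 to 0.0070 for miR-125b-5p, -0.013 to 0.016 for miR-125a-5p, -0.0048 to 0.097 for miR-99a-3p, -0.048 to 0.014 for let-7a-5p and -0.014 to 0.024 for let-7c-5p. A group of 2 left by a leave-out was fitted with the spread pooled over both groups.

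Same-numbered samples had correlations of 0.24, 0.32 and 0.079 between their deviations from the group means over 167 miRNAs. Differently numbered samples ran from -0.60 to 0.35, the highest of all, for IL-8 replicate 3 with control replicate 2. The numbers were not taken as pairs, and whether they mark pairs is not settled by these values. With the replicate block 0 members and 0 arm pairs were called, and the count over all miRNAs was 3.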
